A study of Mus musculus with 9 samples.

Results

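The fatty-acid desaturases and elongases of mouse liver were followed in 3 dietary groups. Named genes were taken from these families by symbol (Scd1, Scd2, Fads1, Fads2, Fads3, Fads6, Elovl1, Elovl2, Elovl5, and Elovl6), each with a value above 0 in at least 1 liver. All 10 met this rule, out of 23183 genes in the tables. The livers came from 9 male C57BL/6J mice at postnatal day 100, with 1 RNA-Seq library per mouse and 3 mice per group, in a study of obesity and of a citrus leaf fraction. The ND group ate a normal diet with 14% fat for 10 weeks (mice 6, 7, and 9). The HFD group ate a diet with 60% fat for 10 weeks (mice 1, 2, and 3). The PRF 50 group ate the same high-fat diet for 10 weeks and received 50 mg/kg of PRF per day during the last 5 weeks (mice 3, 9, and 10), PRF being a fraction of Jinkyool (Citrus sunki) leaf rich in polymethoxyflavones. Mice had been fasted before blood and tissue were collected, and whether the ND and HFD mice received the carrier solution is not given in the sources used here. A number shared by mice of different groups does not make them a pair.

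Desaturases of the endoplasmic reticulum place a cis bond in a fatty acyl-CoA, and elongases start the cycle that lengthens the chain with malonyl-CoA. In a monounsaturated branch, palmitate made by the liver is lengthened to stearate and desaturated to palmitoleate and oleate, acyl chains found in liver triglyceride. In a polyunsaturated branch, the dietary linoleate and alpha-linolenate are desaturated and lengthened in turn to arachidonate, eicosapentaenoate, and docosahexaenoate, which are placed in phospholipid.

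The deposited values were read as log2(FPKM + 1), in which FPKM counts fragments relative to transcript length and sequencing depth. Levels of different genes were compared in FPKM, and groups were compared on the log2 scale. The absolute depth is unknown. With HFD mouse 1 set to 1, relative depths of 1.17 (HFD mouse 2) and 1.60 (HFD mouse 3) were estimated from the low values. The ND libraries had depths of 1.06 to 1.15, and those of PRF 50 mice 3, 9, and 10 had 0.982, 1.51, and 0.963. The highest value of all was that of the small nuclear RNA gene Rnu6 in HFD mouse 2 (22.44 on the log2 scale), which was listed at 0 in the other 8 livers, and ND mouse 9 alone had a value for the small nucleolar RNA gene Snord49a (14.51). As for the tissue, the hepatocyte list (Apoa1, Ttr, Hnf4a, Tat, Cyp2e1, and Alb) summed to 16417 to 25125 FPKM per liver and was led by Apoa1, while Alb was listed at 0 in all 9 livers.

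**Figure D1:**
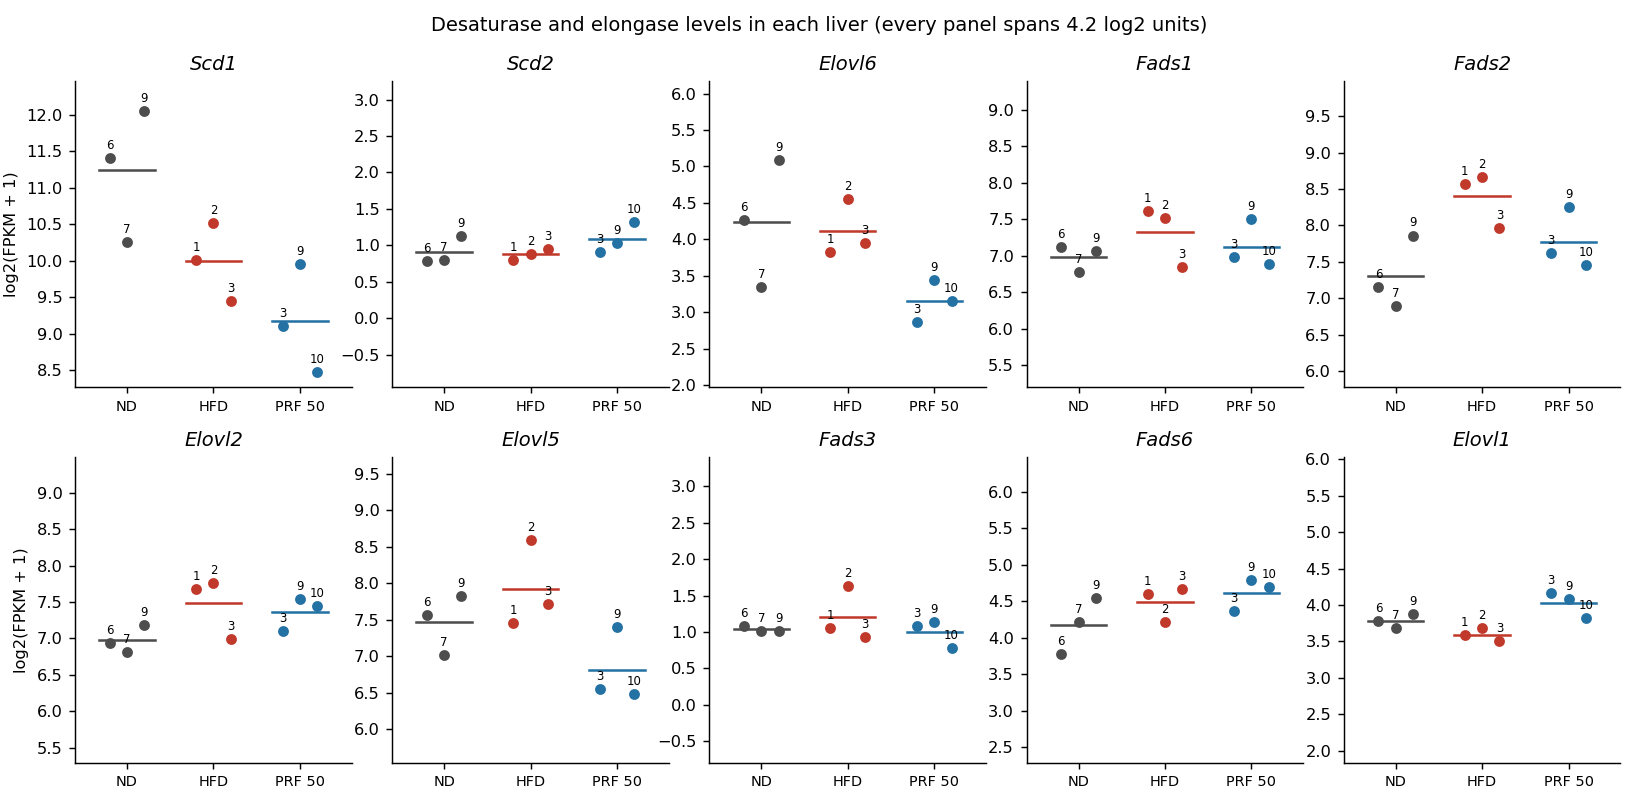
Level of each of the 10 genes on the log2(FPKM + 1) scale in the ND, HFD, and PRF 50 groups, where each point is 1 liver with its mouse number and each line is a group mean (n = 3). Scd1 covers the widest range, from 8.48 in PRF 50 mouse 10 to 12.05 in ND mouse 9, and Elovl6 and Elovl5 are below every HFD liver in the PRF 50 group.

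In the order of mean FPKM over the 9 livers, Scd1 came first with 1475, followed by Fads2 with 244, Elovl5 with 184, Elovl2 with 158, and Fads1 with 143. Fads6 with 21.0, Elovl6 with 15.0, and Elovl1 with 13.0 formed a middle tier, and Fads3 with 1.14 and Scd2 with 0.955 were lowest. Scd1 was above Fads2 in 9 of 9 livers, and the lowest level of Fads1 (109 FPKM) was above the highest of Fads6 (26.6 FPKM). Neighbours within a tier were not separated: Fads2 exceeded Elovl5 in 7 livers, Elovl5 exceeded Elovl2 in 5, Fads6 exceeded Elovl6 in 6, Elovl6 exceeded Elovl1 in 5, and Fads3 exceeded Scd2 in 6. Elovl2 was above Fads1 in 8 of 9 livers, although their ranges overlapped. The order within a tier also differed between groups. With ND, mean Elovl5 (180 FPKM) was above Fads2 (164). With PRF 50, mean Elovl5 (116) was below Elovl2 (165) and Fads1 (141), and Elovl6 (8.01) was below Elovl1 (15.3). Between the lowest and the highest liver, the log2 value differed by 3.58 for Scd1, 2.22 for Elovl6, 2.12 for Elovl5, and 1.78 for Fads2, against a median of 0.56 over the 10048 genes that averaged 1 FPKM or more.

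Stearoyl-CoA desaturase 1 (Scd1; GRCm38 chr19:44394455-44407879, minus strand), the main enzyme that makes oleate and palmitoleate in mouse liver, was at 11.41, 10.25, and 12.05 on the log2 scale in ND mice 6, 7, and 9. In HFD mice 1, 2, and 3 its values were 10.01, 10.51, and 9.45, and in PRF 50 mice 3, 9, and 10 they were 9.10, 9.95, and 8.48. Every PRF 50 liver was below every ND liver, whereas the HFD livers lay between these groups and overlapped both. Mean levels of Scd1 were 2731 ± 1513 FPKM with ND, 1063 ± 381 with HFD, and 631 ± 325 with PRF 50 (SD, n = 3). The log2 difference was -1.25 for HFD vs. ND (95% confidence interval -2.30 to -0.20, limma adjusted p = 0.257) and -2.06 for PRF 50 vs. ND (-3.23 to -0.90, limma adjusted p = 0.151). Between PRF 50 and HFD it was -0.81 (-1.75 to 0.13, limma adjusted p = 0.317), and it moved to -0.46 without PRF 50 mouse 10. In whole liver, fewer cells of a type and less RNA per cell cannot be told apart.

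Scd2, a near copy of Scd1 that is used mainly in brain and in newborn tissues, lies 114 kb from Scd1 between their starts (chr19:44293674-44306864, plus strand), in a cluster that also holds Scd3 and Scd4. Its log2 values ranged from 0.78 to 1.32 over the 9 livers, with all 3 groups overlapping, so that Scd1 made up 99.6% to 99.97% of the summed Scd1 and Scd2 FPKM. Of the 50-base stretches in the annotated Scd2 transcripts, 2.66% also occur in those of Scd1. How reads that fit both genes were assigned is not given in the sources used here, which leaves the low Scd2 level uncertain. Scd2 reached a mean of 1 FPKM only over the ND and PRF 50 livers, where its log2 difference was 0.19 (limma adjusted p = 0.664). This value was 0.10 with quantile normalization and 0.34 with a pseudocount of 0.1, and without ND mouse 9 or PRF 50 mouse 10 Scd2 did not reach the minimum level.

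Elovl6 (chr3:129532355-129638495, plus strand) lengthens palmitate to stearate, which supplies Scd1 with its preferred substrate. It was at 4.27, 3.35, and 5.08 in ND mice 6, 7, and 9, at 3.83, 4.56, and 3.95 in HFD mice 1, 2, and 3, and at 2.86, 3.44, and 3.16 in PRF 50 mice 3, 9, and 10. The 3 PRF 50 livers were below the 3 HFD livers, and the ND livers spread over both ranges, with ND mouse 7 inside the PRF 50 range. Mean Elovl6 levels were 16.7 ± 5.05 FPKM with HFD and 8.01 ± 1.79 with PRF 50 (SD, n = 3), and the ND livers ran from 9.17 to 32.9 FPKM. The log2 difference for PRF 50 vs. HFD was -0.96 (-1.47 to -0.45), with a limma adjusted p of 0.0629, and of 0.208 with all 9 mice in 1 fit. Against ND the PRF 50 difference was -1.08 (-1.98 to -0.18, limma adjusted p = 0.316), and -0.65 without ND mouse 9. The HFD vs. ND difference of -0.12 had an interval from -1.04 to 0.80 and changed sign without HFD mouse 1 (0.021) or ND mouse 9 (0.31), and it was -0.56 without ND mouse 7.

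Fads2 and Fads1 are neighbours on chromosome 19 with their starts 81.1 kb apart on opposite strands, and Fads3 lies on the other side of Fads2. Fads2 (chr19:10062765-10101746, minus strand) encodes the desaturase that opens the polyunsaturated branch by acting on linoleate and alpha-linolenate. Its log2 values were 7.16, 6.89, and 7.86 in ND mice 6, 7, and 9, 8.56, 8.67, and 7.96 in HFD mice 1, 2, and 3, and 7.62, 8.25, and 7.46 in PRF 50 mice 3, 9, and 10. All HFD livers were above all ND livers, by 0.098 at the closest pair, and the PRF 50 livers overlapped both groups. Mean Fads2 levels were 344 ± 84.4 FPKM with HFD and 225 ± 68.9 with PRF 50 (SD, n = 3), and the ND livers ran from 118 to 232 FPKM. The log2 difference was 1.09 for HFD vs. ND (0.45 to 1.74, limma adjusted p = 0.128). It was -0.62 for PRF 50 vs. HFD (-1.22 to -0.02, limma adjusted p = 0.230) and 0.47 for PRF 50 vs. ND (-0.20 to 1.14), an interval that includes 0. The last value was 0.23 without PRF 50 mouse 9, 0.26 without ND mouse 7, and 0.75 without ND mouse 9.

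Fads1 (chr19:10182888-10196877, plus strand), the desaturase that completes arachidonate and eicosapentaenoate, stayed in a narrower range. Values were 7.11, 6.78, and 7.06 in the ND mice, 7.61, 7.52, and 6.84 in the HFD mice, and 6.98, 7.50, and 6.88 in the PRF 50 mice, in the same order of mice. HFD mice 1 and 2 and PRF 50 mouse 9 were the high livers, and all 3 groups overlapped. The largest of its 3 log2 differences was 0.34 for HFD vs. ND (-0.15 to 0.83, limma adjusted p = 0.511), which was 0.19 without HFD mouse 1 and 0.58 without HFD mouse 3.

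Elovl5 (chr9:77917364-77984519, plus strand) lengthens the polyunsaturated chains between the steps of Fads2 and Fads1. It was at 7.56, 7.02, and 7.82 in ND mice 6, 7, and 9, at 7.45, 8.60, and 7.71 in HFD mice 1, 2, and 3, and at 6.54, 7.41, and 6.48 in PRF 50 mice 3, 9, and 10. HFD mouse 2 was the highest liver and PRF 50 mice 3 and 10 were the lowest. The PRF 50 and HFD groups did not overlap, but PRF 50 mouse 9 and HFD mouse 1 were only 0.046 apart. Mean Elovl5 levels were 180 ± 48.4 FPKM with ND, 256 ± 114 with HFD, and 116 ± 45.4 with PRF 50 (SD, n = 3). The log2 difference for PRF 50 vs. HFD was -1.11 (-1.93 to -0.30, limma adjusted p = 0.135), and it was -0.77 without HFD mouse 2. It was -0.66 (-1.33 to 0.02, limma adjusted p = 0.409) for PRF 50 vs. ND, and for HFD vs. ND 0.45 (-0.27 to 1.18). The HFD vs. ND value was 0.12 without HFD mouse 2, 0.23 without ND mouse 7, and 0.69 without HFD mouse 1.

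Elovl2 (chr13:41182381-41220405, minus strand), which lengthens the longest polyunsaturated chains on the way to docosahexaenoate, did not share the low PRF 50 values of Elovl5. Its log2 values were 6.93, 6.82, and 7.18 in the ND mice, 7.68, 7.77, and 6.99 in the HFD mice, and 7.10, 7.54, and 7.44 in the PRF 50 mice. HFD mouse 3 lay within the ND range and PRF 50 mouse 3 just below ND mouse 9, so no pair of groups was separated. Differences were 0.50 for HFD vs. ND (0.01 to 0.99, limma adjusted p = 0.325), 0.38 for PRF 50 vs. ND (0.01 to 0.75, limma adjusted p = 0.387), and -0.12 for PRF 50 vs. HFD (-0.64 to 0.40). The last of these changed sign without HFD mouse 2 (0.024) or PRF 50 mouse 3 (0.010) and with quantile normalization (0.015), and it was -0.36 without HFD mouse 3.

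Promoters are shown for the 3 genes with a sequence in the reference table whose groups did not overlap and whose log2 difference was near or above 1. They run from 250 bases before to 50 bases after the RefSeq start site (GRCm38.p6), 5′ to 3′ on the strand of the gene, with every match to the searched motifs in capitals. Elovl6 covers chr3:129532136-129532435 on the plus strand, Elovl5 covers chr9:77917115-77917414 on the plus strand, and Fads2 covers chr19:10101454-10101753 on the minus strand. The RefSeq start lies 31, 1, and 243 bases inside the GENCODE gene in this order, so most of the Fads2 window is within its annotated gene.
Elovl6: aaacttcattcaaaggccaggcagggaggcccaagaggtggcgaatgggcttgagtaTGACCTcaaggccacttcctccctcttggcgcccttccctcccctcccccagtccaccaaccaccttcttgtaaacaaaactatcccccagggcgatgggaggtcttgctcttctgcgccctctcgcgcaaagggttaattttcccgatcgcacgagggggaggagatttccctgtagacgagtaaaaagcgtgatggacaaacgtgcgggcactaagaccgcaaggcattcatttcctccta
Elovl5: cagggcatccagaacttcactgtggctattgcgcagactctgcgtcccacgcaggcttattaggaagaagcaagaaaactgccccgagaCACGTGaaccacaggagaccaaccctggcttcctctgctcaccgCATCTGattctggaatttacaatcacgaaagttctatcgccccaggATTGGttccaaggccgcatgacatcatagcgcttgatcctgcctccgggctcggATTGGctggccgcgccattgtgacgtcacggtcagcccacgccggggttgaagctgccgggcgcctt
Fads2: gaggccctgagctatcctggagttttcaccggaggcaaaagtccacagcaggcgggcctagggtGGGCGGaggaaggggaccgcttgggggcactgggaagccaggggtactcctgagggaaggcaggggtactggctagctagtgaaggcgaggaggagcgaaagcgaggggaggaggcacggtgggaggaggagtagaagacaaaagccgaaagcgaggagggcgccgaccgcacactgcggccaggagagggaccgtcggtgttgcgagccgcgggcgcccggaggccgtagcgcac
Motifs were searched on both strands: CCAAT (the CCAAT box), TCACNCCAC (a sterol regulatory element), CANNTG (the E-box, N being any base), GGGCGG (the GC box), and AGGTCA (a nuclear receptor hexamer). Elovl5 held 2 CCAAT matches, with their first bases at positions -71 and -17 from the start, and 2 E-box matches, at -161 and -117. Elovl6 held a single AGGTCA match at -193, and Fads2 a single GGGCGG match at -186.

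Of the 10 genes, 7 had a promoter in the table, with 9 start sites in all, and Scd1, Scd2, and Fads1 had none there. CCAAT was found in 3 of the 9 promoters (Elovl5, Fads3, and Elovl1), against 37.4% of all 32851 promoters of the same length. CANNTG was found in 5 of 9 (72.3% of all), GGGCGG in 6 of 9 (35.7%), and AGGTCA in 3 of 9 (16.3%). TCACNCCAC, held by 1.24% of all promoters, was in none of the 9. Elovl2 held 5 GGGCGG matches at its upstream start and no match at the other start, and Fads6 held 2 AGGTCA matches. Matches of different motifs shared bases only in Elovl1, where a GGGCGG match ran into a CCAAT match. The 3 printed promoters have no motif of this search in common, and a match is a run of letters, with binding not measured here.

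**Figure D2:**
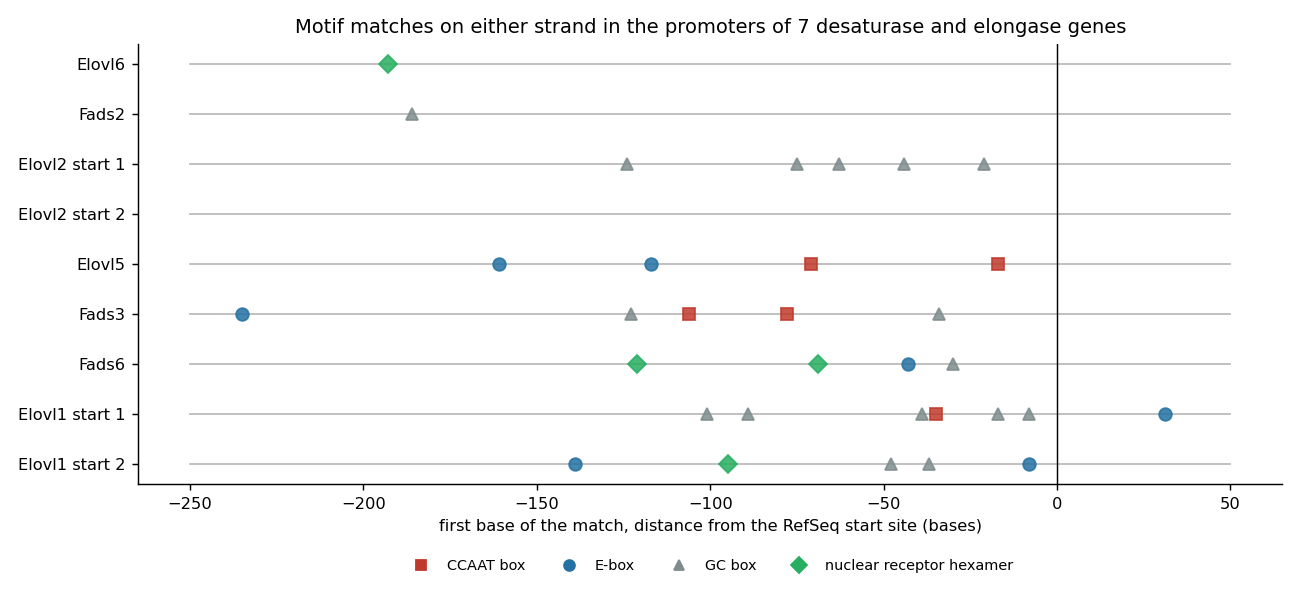
Motif matches on either strand in the 9 promoters of 7 genes, placed by the distance of their first base from the RefSeq start site at 0, in bases. Each row is 1 promoter from 250 bases before to 50 bases after the start. No row held TCACNCCAC, the sterol regulatory element searched, but only 1.24% of all promoters hold it, so its absence here says little.

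Of the genes outside both branches, Elovl1 (chr4:118428093-118432953, plus strand), which lengthens saturated chains for sphingolipids, was higher in value in the PRF 50 livers. It was at 3.79, 3.68, and 3.87 in ND mice 6, 7, and 9, at 3.58, 3.69, and 3.51 in HFD mice 1, 2, and 3, and at 4.16, 4.09, and 3.82 in PRF 50 mice 3, 9, and 10. All PRF 50 livers were above all HFD livers, with the ND livers overlapping both. The log2 difference for PRF 50 vs. HFD was 0.43 (0.17 to 0.69, limma adjusted p = 0.0866), with means of 11.1 ± 0.742 FPKM under HFD and 15.3 ± 1.95 under PRF 50 (SD, n = 3). Fads6 (chr11:115279622-115297663, minus strand), a family member whose substrate is not established, ranged from 3.78 to 4.79 with all groups overlapping. Fads3 (chr19:10041569-10060110, plus strand), which desaturates sphingoid bases, ranged from 0.78 to 1.62 and was highest in HFD mouse 2. On the log2(FPKM + 1) scale a difference in Fads3 is understated, because its mean was only 1.14 FPKM.

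None of the tested desaturases and elongases passed an adjusted p-value of 0.05 over all genes in limma. In PRF 50 vs. HFD this was 0 of 9 genes, against 3.59% of the 10084 tested genes. The groups did not overlap in 3 of 9 (Elovl6, Elovl5, and Elovl1), against 26.2% of all tested genes. An unadjusted p-value under 0.05 was found in 4 of 9 (Elovl6, Elovl1, Elovl5, and Fads2), against 20.2% of all, and a fold change above 2 in addition in Elovl5 alone, against 2.1% of all. Elovl5 was below this fold without HFD mouse 2, PRF 50 mouse 3, or PRF 50 mouse 10 (log2 differences of -0.77, -0.98, and -0.94). Elovl6 was above it with a pseudocount of 0.1 (-1.04) and without HFD mouse 1, HFD mouse 3, or PRF 50 mouse 9 (-1.10, -1.04, and -1.10), and Scd1 without HFD mouse 3 or PRF 50 mouse 9 (-1.08 and -1.20). The median log2 difference of the 9 was -0.20, against -0.015 over all tested genes, and it was -0.11, -0.45, and -0.39 without HFD mouse 2, HFD mouse 3, and PRF 50 mouse 9.

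For HFD vs. ND, 0 of 9 genes passed the adjusted threshold in limma, against 1.33% of 9978 tested genes. Fads2 was the only gene of the 9 whose groups did not overlap, where 20.7% of all tested genes showed this. The unadjusted p-value was under 0.05 in 3 of 9 (Fads2, Scd1, and Elovl2), against 15.1% of all, and the fold change was also above 2 in 2 of 9 (Scd1 and Fads2), against 1.34% of all. The fold of Scd1 was below 2 without HFD mouse 3 or ND mouse 9 (-0.98 and -0.84), and that of Fads2 without HFD mouse 2 or ND mouse 7 (0.96 and 0.89). The median difference was 0.32, against -0.0091 over all tested genes, and it was 0.12 without HFD mouse 2 and 0.19 without ND mouse 6. In PRF 50 vs. ND, 0 of 10 passed in limma, against 0.458% of 10051 tested genes, and only Scd1 did not overlap, against 19.9% of all. In this comparison 3 of 10 had an unadjusted p-value under 0.05 (Scd1, Elovl6, and Elovl2), against 12.5% of all. Of these, Scd1 and Elovl6 also had a fold change above 2, against 1.76% of all (Elovl6 not without ND mouse 9 or PRF 50 mouse 3, at -0.65 and -0.93), and the median difference was 0.16, against -0.031 over all tested genes (0.083 without ND mouse 7 and 0.25 without PRF 50 mouse 10). The counts without overlap (3 of 9, 1 of 9, and 1 of 10) were near or below the shares over all genes, whereas those by unadjusted p-value were above them with all mice. The 3 comparisons share mice, since each group enters 2 of them.

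**Figure D3:**
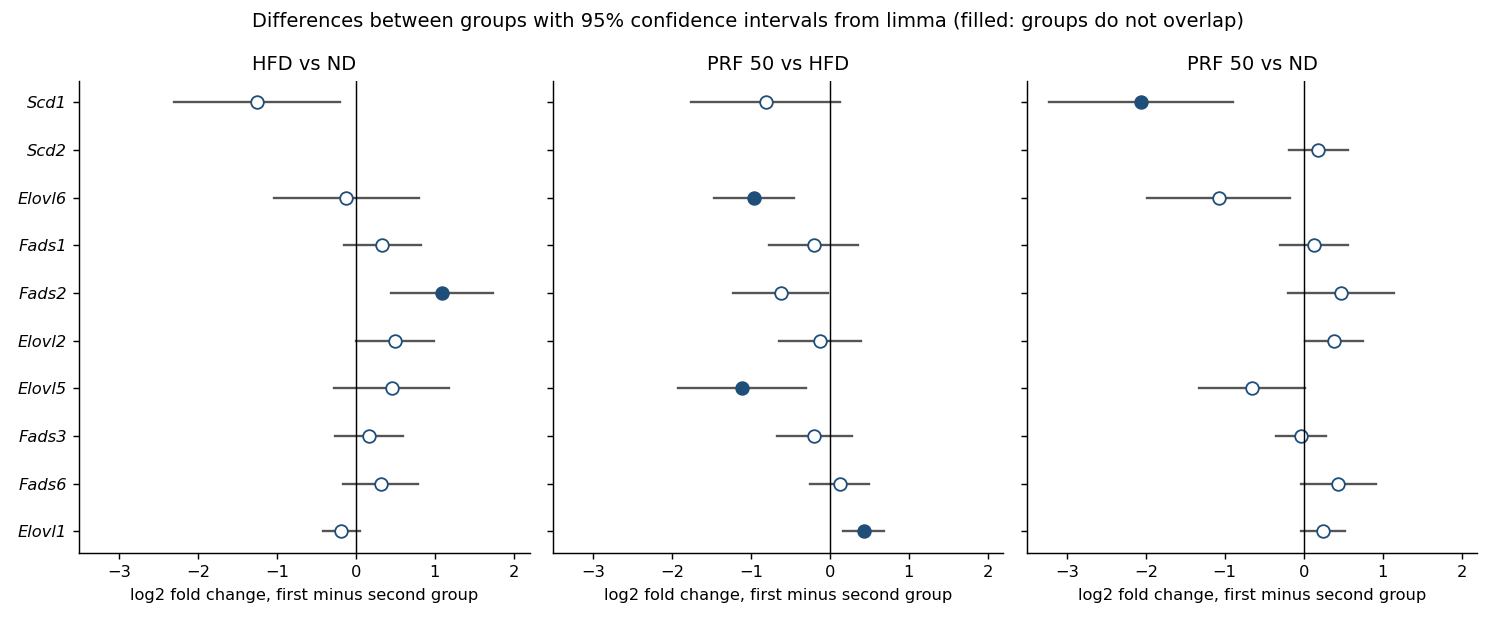
Difference between group means on the log2(FPKM + 1) scale for each gene in HFD vs. ND, PRF 50 vs. HFD, and PRF 50 vs. ND, with 95% confidence intervals from limma (n = 3 mice per group). Filled points mark groups without overlap, and Scd2 is shown only for PRF 50 vs. ND, the comparison in which it reached the minimum level.

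No gene of the 10 separated the ND livers from both other groups, but the balance between the genes within each liver did. Scd1 made up 81.1%, 70.6%, and 84.1% of the summed FPKM of the 10 genes in ND mice 6, 7, and 9. It made up 50.8%, 53.9%, and 48.3% in HFD mice 1, 2, and 3, and 48.0%, 52.6%, and 37.2% in PRF 50 mice 3, 9, and 10. The summed FPKM of the monounsaturated branch (Scd1, Scd2, and Elovl6) was 4.67, 2.63, and 5.83 times that of the polyunsaturated branch (Fads1, Fads2, Elovl2, and Elovl5) in the ND mice. This ratio was 1.10, 1.24, and 1.03 in the HFD mice and 1.01, 1.20, and 0.660 in the PRF 50 mice. Every ND liver was thus above every liver on the high-fat diet, with and without PRF, while the HFD and PRF 50 livers overlapped. The polyunsaturated sum was 467 to 734 FPKM in the ND livers, 696 to 1192 in the HFD livers, and 549 to 837 in the PRF 50 livers, and the monounsaturated sum is nearly all Scd1. The ratio was formed with the values known and carries no test.

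Fads2 and Fads1, the paired desaturases of the polyunsaturated branch, also differed in balance. The Fads2 value minus the Fads1 value was 0.047, 0.11, and 0.80 on the log2 scale in ND mice 6, 7, and 9, and 0.95, 1.15, and 1.12 in HFD mice 1, 2, and 3. It was 0.64, 0.75, and 0.58 in PRF 50 mice 3, 9, and 10. The HFD livers were above all others, the PRF 50 livers lay close together below them, and ND mouse 9 was above the PRF 50 livers while ND mice 6 and 7 were near 0. Between the elongases, the Elovl5 value minus the Elovl2 value was 0.63, 0.20, and 0.64 in the ND mice, -0.23, 0.83, and 0.72 in the HFD mice, and -0.56, -0.13, and -0.96 in the PRF 50 mice. PRF 50 livers were the only group with this difference below 0 in all 3 mice, though HFD mouse 1 lay inside their range. Both differences between genes were likewise formed with the values known and carry no test.

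**Figure D4:**
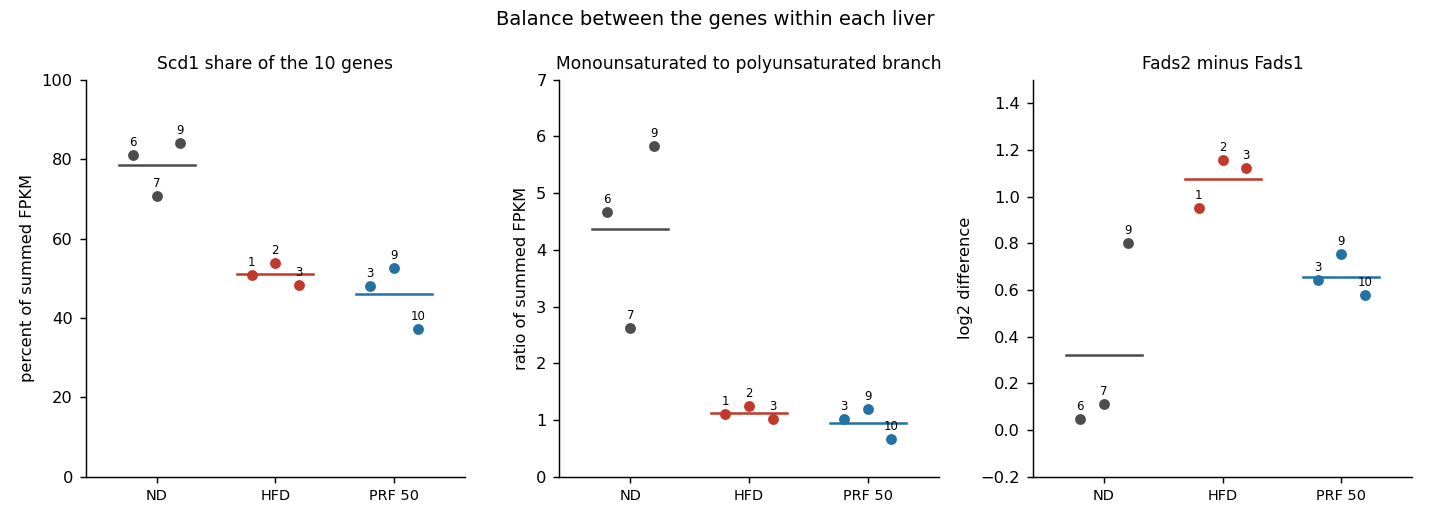
Scd1 share of the summed FPKM of the 10 genes in percent, ratio of the summed FPKM of the monounsaturated to the polyunsaturated branch, and Fads2 minus Fads1 on the log2 scale, with 1 point per liver labelled by mouse number and a line at each group mean (n = 3). The Scd1 share is 70.6% to 84.1% in the ND livers and 37.2% to 53.9% in the other 6 livers.

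Within each group, the same liver was highest or lowest for many of these genes. PRF 50 mouse 9 had the highest value of its group for 8 of the 10 genes and the lowest for 0, and ND mouse 9 was likewise highest for 8. ND mouse 7 was lowest of its group for 7 genes, HFD mouse 2 highest for 7, HFD mouse 3 lowest for 6, and PRF 50 mouse 10 lowest for 6. Over all genes that averaged 1 FPKM or more, PRF 50 mouse 9 was highest of its group for 31.7%, ND mouse 9 for 33.1%, and HFD mouse 2 for 27.9%, and ND mouse 7 was lowest for 26.5%, HFD mouse 3 for 34.7%, and PRF 50 mouse 10 for 34.1%. The deepest libraries were HFD mouse 3 and PRF 50 mouse 9, of which the former tended to be low and the latter high. Whether feeding state, cell content, or library quality differed between these mice was not tested.

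Of the other desaturases and elongases, Elovl3, an elongase of saturated and monounsaturated chains, and Degs1, the dihydroceramide desaturase, reached the minimum level. Scd3, Scd4, Elovl4, Elovl7, and Degs2 did not. Elovl3 was at 5.61, 6.19, and 5.78 in ND mice 6, 7, and 9, at 4.24, 4.77, and 5.01 in HFD mice 1, 2, and 3, and at 4.19, 4.56, and 5.14 in PRF 50 mice 3, 9, and 10. All ND livers were above all livers on the high-fat diet, as for the Scd1 share. Its log2 difference was -1.18 for HFD vs. ND (limma adjusted p = 0.0506) and -1.23 for PRF 50 vs. ND (limma adjusted p = 0.0949), and -0.043 for PRF 50 vs. HFD. Degs1 was 0.32 higher in value for PRF 50 vs. HFD (limma adjusted p = 0.119).

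Among the enzymes that complete the elongation cycle, 0 of 5 tested genes passed in limma in each comparison. Over all tested genes, 3.59% passed for PRF 50 vs. HFD, 1.33% for HFD vs. ND, and 0.458% for PRF 50 vs. ND. Median log2 differences of this list were -0.13, -0.0078, and -0.31 in these 3 comparisons, the order kept for medians in the lists that follow. The lowest adjusted p-value in this list was 0.0631 in limma, for Hsd17b12, the ketoacyl-CoA reductase, at -0.53 for PRF 50 vs. HFD, and Tecr, the enoyl-CoA reductase of the last step, was at -0.16. Among the cytochrome b5 genes and their reductases, which supply electrons to desaturases, 0 of 5 passed, with medians of -0.15, -0.0067, and -0.18. The most abundant of them, Cyb5a and Cyb5r3, averaged 1869 and 272 FPKM over the 9 livers. Over the same livers the mean Scd1 level was 1475 FPKM, below that of Cyb5a. In ND mice 6 and 9, however, Cyb5a (11.24 and 10.56 on the log2 scale) was below Scd1 (11.41 and 12.05).

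In the list for malonyl-CoA and palmitate supply, 2 of 8 genes were lower for PRF 50 vs. HFD, 0 of 8 passed for HFD vs. ND, and 1 of 8 was lower for PRF 50 vs. ND. The shares of all tested genes that passed, in either direction, were 3.59%, 1.33%, and 0.458%. Medians of this list were -0.56, -0.20, and -0.90. Its genes that passed were Thrsp (-1.97), a regulator of lipogenesis, and malic enzyme Me1 (-1.72 against HFD and -1.95 against ND), which makes NADPH used in chain synthesis and desaturation. The list of SREBP, LXR, and ChREBP control had 0 of 12 past the threshold in limma in each comparison, with medians of 0.037, -0.10, and -0.045. Its most abundant genes were Insig1, which holds SREBP in the endoplasmic reticulum, and Srebf1, which encodes the SREBP that activates lipogenic genes. They were at 0.10 and -0.13 for PRF 50 vs. HFD, and at -0.78 and 0.29 for HFD vs. ND, none of which passed.

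Among PPAR control genes, medians were -0.12, 0.16, and 0.16, and 0 of 5 passed for HFD vs. ND (1.33% of all tested genes). In PRF 50 vs. HFD and PRF 50 vs. ND, where 3.59% and 0.458% of all tested genes passed, 1 of 5 was lower. The gene that passed was Pparg (-1.25 and -1.12), while Ppara was at 0.59 for HFD vs. ND (limma adjusted p = 0.0521) and -0.52 for PRF 50 vs. HFD (limma adjusted p = 0.083). Rxra, the most abundant of this list together with Ppara, was at 0.18 for PRF 50 vs. HFD. For the acyl-CoA synthetases and enzymes that place unsaturated chains in phospholipid, medians over the 7 tested genes were -0.28, -0.12, and -0.075. In limma 0 of 7 passed for HFD vs. ND and PRF 50 vs. ND (1.33% and 0.458% of all tested genes). In PRF 50 vs. HFD, where 3.59% of all tested genes passed, 1 of 7 was lower. This was Acsl1 (-1.11), the main long-chain acyl-CoA synthetase of liver, and Acsl5, the next in abundance, was at -0.41 (limma adjusted p = 0.161).

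Docosahexaenoate is completed in peroxisomes, where a longer precursor made by Elovl2 and the desaturases is shortened by a round of oxidation. Of this step 5 genes are reported here, with 2 more of its list left out. Of the 5, 3 were lower for PRF 50 vs. HFD, 0 passed in limma for HFD vs. ND, and 1 was lower for PRF 50 vs. ND. The shares of all tested genes that passed, in either direction, were 3.59%, 1.33%, and 0.458% in the same order. The medians over these 5 genes were -0.60, 0.35, and -0.11. Acaa1b, a thiolase, was lower for PRF 50 vs. HFD (-1.76) and when set against ND (-1.32). The importer Abcd2 (-1.20) and the multifunctional enzyme Hsd17b4 (-0.60) were also lower for PRF 50 vs. HFD. Scp2 and Acaa1b were the most abundant of the 5 with 1928 and 614 FPKM, and Scp2 did not pass. The enzymes of this list also shorten other very long and branched chains.

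Each gene of these lists that passed lost its call without at least 1 of the mice, at log2 differences close to those with all mice. For PRF 50 vs. HFD the call of Acaa1b was lost without HFD mouse 3 (-1.69), that of Me1 without HFD mouse 3 (-1.85) or PRF 50 mouse 3 (-1.62), and that of Thrsp without HFD mouse 2 (-1.96) or 3 (-2.02), with a largest limma adjusted p of 0.0529 for each. Pparg lost it without HFD mouse 2, HFD mouse 3, or PRF 50 mouse 3 (-1.33 to -1.19), and Hsd17b4 without these or PRF 50 mouse 10 (-0.62 to -0.53). Abcd2 kept the call only without PRF 50 mouse 9, and Acsl1 only without PRF 50 mouse 10, with ranges over the 6 omissions of -1.39 to -1.02 and -1.26 to -0.91. For PRF 50 vs. ND the call was kept without 1 of the 6 mice, which was PRF 50 mouse 9 for Acaa1b, ND mouse 9 for Me1, and PRF 50 mouse 10 for Pparg. Their log2 differences ranged over the omissions from -1.51 to -1.22, from -2.11 to -1.64, and from -1.23 to -0.93.

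Markers of other cell types moved with the PRF 50 group. Of the Kupffer cell and macrophage list (Clec4f, Vsig4, Adgre1, Cd5l, Csf1r, and Cd68), 6 of 6 were higher for PRF 50 vs. HFD, where 3.59% of all tested genes passed. In limma 0 of 6 passed for PRF 50 vs. ND or HFD vs. ND (0.458% and 1.33% of all tested genes). The median log2 difference of the 6 genes was 1.39 for PRF 50 vs. HFD, 1.41 for PRF 50 vs. ND, and 0.070 for HFD vs. ND. Their summed level was 55.2, 91.3, and 99.5 FPKM in HFD mice 1, 2, and 3, 43.8, 86.2, and 116 in ND mice 6, 7, and 9, and 279, 193, and 212 in PRF 50 mice 3, 9, and 10. Cd5l was the most abundant, and no gene of the list was listed at 0 in all livers. All 6 calls were lost without HFD mouse 2, HFD mouse 3, or PRF 50 mouse 3, with limma adjusted p-values of 0.0529 to 0.0955, while their log2 differences were then 0.91 to 1.79, against 0.99 to 1.60 with all mice. Without PRF 50 mouse 10 all but Vsig4 lost the call, and Cd68 also lost it without HFD mouse 1 and Clec4f without PRF 50 mouse 9. In the adipocyte list, Plin1 and Lep were listed at 0 in all 9 livers, Adipoq was above 0 only in HFD mice 2 and 3, and the most abundant gene was Cidec, which fatty hepatocytes also use. Its sum was 3.56, 18.9, and 26.3 FPKM in the HFD mice, 3.25, 2.69, and 4.31 in the ND mice, and 0.267, 1.48, and 0.286 in the PRF 50 mice, and 1 of 2 tested genes (Cidec) was lower for PRF 50 vs. HFD, a call lost without HFD mouse 2 or 3 or PRF 50 mouse 3 or 10 at log2 differences of -2.68 to -2.42 (-2.72 with all mice).

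No gene passed in limma in the lists for hepatocytes (5 tested), sinusoidal endothelium (5), stellate cells and fibroblasts (5, or 4 for PRF 50 vs. ND), lymphocytes (1), and erythroid cells (2), and the cholangiocyte genes were mostly below the minimum level. The part of the Kupffer cell and adipocyte lists in the values of the desaturases and elongases was not tested. Apoa1, Ttr, and the other hepatocyte genes summed to 20694 ± 3270 FPKM with HFD, 19768 ± 4688 with ND, and 20279 ± 91.1 with PRF 50 (SD, n = 3).

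For the 3 genes of this family with the widest range, the genes with the most similar values were sought among all genes that averaged 1 FPKM or more over the 9 livers. Likeness was measured as the root mean square difference between log2 values centred on their mean over the 9 livers, a description of these livers only. Scd1 was closest to the glucuronosyltransferase gene Ugt1a5 (0.43; it shares exons with other Ugt1a genes, so its value is uncertain), the fatty acid synthase gene Fasn (0.50), and the transcription factor gene Klf10 (0.56), where the median over all genes was 1.05. Elovl6 was closest to the acetyl-CoA carboxylase genes Acacb (0.33) and Acaca (0.33), which make malonyl-CoA, and to the pyruvate kinase gene Pklr (0.37), with a median of 0.69. Elovl5 was closest to the centromere gene Cenpm (0.32), the phosphoinositide kinase gene Pik3c2g (0.33), and Insig2 (0.33), with a median of 0.64. These medians were near the root mean square deviation of Scd1, Elovl6, and Elovl5 from their own means (1.04, 0.67, and 0.62). The genes named are the closest of all those searched, so their distances lie below the median by the choice itself. Insig2, which like Insig1 holds SREBP in the endoplasmic reticulum, was at 6.42 in HFD mouse 2 and at 4.82 and 4.99 in PRF 50 mice 3 and 10, the livers in which Elovl5 was highest and lowest. In HFD mouse 1, however, Insig2 was at 5.01, close to those PRF 50 livers, although Elovl5 was near its mean there (7.45). Cenpm and Pik3c2g had low values (at most 2.51 and 1.90), which are the least certain.

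**Figure D5:**
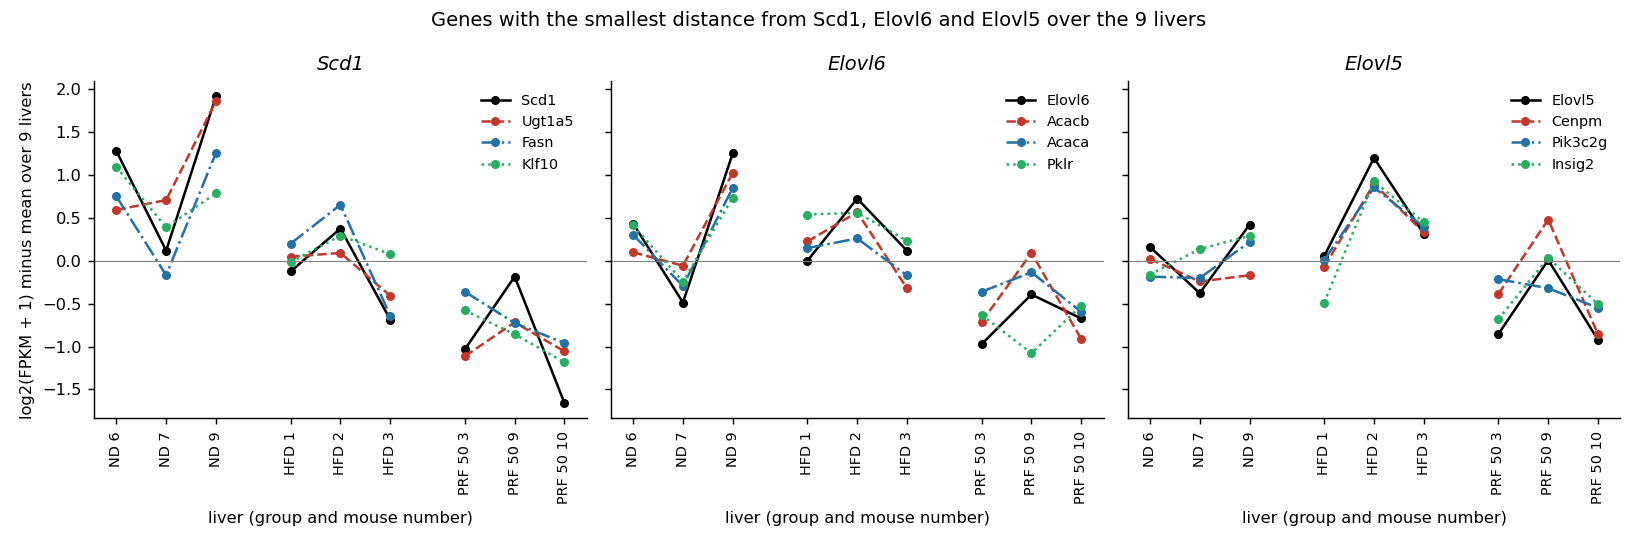
Log2(FPKM + 1) minus the mean over the 9 livers for Scd1, Elovl6, and Elovl5 and, in each panel, the 3 genes with the smallest root mean square difference from it, with 1 point per liver. Lines join the mice of a group to guide the eye and carry no order. Genes beside each member were chosen for likeness to it over the same 9 livers, so a shared pattern follows from the choice.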

How the data were processed

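RNA-Seq values from the livers of 9 mice were used, with 3 mice in each of 3 groups that the sample labels define. Poly(A) RNA libraries were made with a directional kit and sequenced as paired ends. The authors mapped the reads with TopHat to mm10, per the submitters' processing notes, estimated FPKM values with Cufflinks, and name edgeR for a geometric normalization of read counts to FPKM. Which of these gave the deposited values is not stated. The deposited values are 1 log2 value per gene symbol and mouse, read as log2(FPKM + 1) because none is negative. The log base and the pseudocount of 1 are inferred, and an exact 0 can be a failed estimate.

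Comparisons were fitted in R 4.3.3 by lmFit and eBayes (trend on the mean) of limma 3.58.1, each on its own 6 mice and with no covariate. A gene was tested where its mean over the 6 mice reached 1 FPKM, with two-sided p-values adjusted by the Benjamini-Hochberg method over all of them. The steps were tested on simulated data. Named genes were the 10 desaturases and elongases, of each pathway list the genes past the threshold and the 2 most abundant, 3 genes of similar pattern for each of 3 members, and the markers. Listed genes below the minimum level are named as such only. In the peroxisomal list 2 genes are not reported here and are left out of its counts and medians. The members and lists were chosen with earlier results of these data known. Alternatives were scaling by median-of-ratios size factors or by quantiles, omission of each mouse in turn, a joint fit of all 9 mice, a minimum of 10 FPKM or none, a pseudocount of 0.1, a variance prior with no trend, and an unadjusted p under 0.05 with a fold above 2. Gene positions and transcripts came from GENCODE M21 (GRCm38), and promoters came from RefSeq (GRCm38.p6).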

Additional observations from a re-analysis of the deposited data

How the results depend on the processing

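In every alternative with an adjusted p-value, 0 desaturases and elongases passed 0.05 in limma, in each of the 3 comparisons and without any single mouse. With an unadjusted p under 0.05 and a fold above 2 instead, 1 of 9 passed for PRF 50 vs. HFD, 2 of 9 for HFD vs. ND, and 2 of 10 for PRF 50 vs. ND. Over all tested genes 212, 134, and 177 passed in the same order (2.1%, 1.34%, and 1.76%). Among all genes, leaving out 1 mouse gave 15 to 242 genes for PRF 50 vs. HFD (362 with all mice), 35 to 140 for HFD vs. ND (133), and 4 to 71 for PRF 50 vs. ND (46). In PRF 50 vs. HFD the count was 215, 31, and 15 without HFD mice 1, 2, and 3, and 40 and 168 without PRF 50 mice 3 and 10. For HFD vs. ND it was 41 and 35 without HFD mice 2 and 3, and 63 and 39 without ND mice 6 and 7. In PRF 50 vs. ND it was 17 and 4 without ND mice 6 and 7, and 8, 26, and 71 without PRF 50 mice 3, 9, and 10. The count was above that with all mice for HFD vs. ND without HFD mouse 1 (140). It was also above it for PRF 50 vs. ND without ND mouse 9 (59) or PRF 50 mouse 10 (71). The causes, lower power with fewer mice among them, were not tested. With no minimum level the counts were 126, 37, and 11, where more low genes enter the adjustment, and with all 9 mice in 1 fit the count for PRF 50 vs. ND was 107, where the cause was not tested. The log2 differences of the 10 genes kept their direction in 239 of the 249 refits that moved them, and the other 108 refits (joint fit, minimum levels, variance prior) cannot move them. Those that changed sign were small, and leaving out 1 mouse moved them as follows: Elovl2 from -0.36 to 0.024, Fads3 from -0.33 to 0.012, and Fads6 from -0.018 to 0.25 for PRF 50 vs. HFD, Elovl6 from -0.56 to 0.31 and Fads3 from -0.045 to 0.30 for HFD vs. ND, and Fads1 from -0.056 to 0.25 and Fads3 from -0.073 to 0.076 for PRF 50 vs. ND. Quantile normalization moved Elovl2 for PRF 50 vs. HFD to 0.015. The causes were not tested. Adjusted p-values over the alternatives were 0.0507 to 0.208 for Elovl6, 0.0551 to 0.240 for Elovl1, and 0.0845 to 0.295 for Elovl5 (PRF 50 vs. HFD), 0.056 to 0.357 for Fads2 (HFD vs. ND), and 0.084 to 0.359 for Scd1 (PRF 50 vs. ND), all from limma. No paired analysis was possible because the groups hold different mice, whatever numbers they share. Depth limits the low genes most, here Scd2 and Fads3.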
